A study of Mus musculus with 16 samples.

Results

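The effect of tamoxifen on healthy muscle was measured by comparing RNA from quadriceps of wild-type mice fed tamoxifen (WT + TAM, replicates 5 to 8, n = 4) with RNA from quadriceps of untreated wild-type mice (WT, replicates 2 to 4, n = 3). These are 7 of the 16 libraries of the study, which also sequenced *Mtm1* KO mice, a model of myotubular myopathy that lacks the X-linked phosphatase gene *Mtm1*, with and without tamoxifen. All libraries came from C57BL/6 mice at postnatal day 36 by the labels, with wild-type littermates as controls. Treated mice had received tamoxifen citrate at 40 mg/kg per day from day 21, mixed into a standard diet to which sucrose had been added. Untreated mice ate standard chow, so that the drug and the sucrose in its diet cannot be told apart here. The study reports lower body weight in wild-type mice on this dose, and cites earlier work in which high-dose tamoxifen reduced food intake. Lower weight or intake cannot be told apart from other effects of the drug either. Each replicate is taken as 1 mouse, as the study counts n in mice, and the labels give neither sex, litter nor the hour of collection. Another untreated library, WT replicate 1, was left out by the study with no reason given and is used only as a check.

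Tamoxifen binds the estrogen receptors, transcription factors that sit on DNA at estrogen response elements and recruit coactivators or corepressors. Which of these is recruited depends on the tissue, so the drug acts as an estrogen in some tissues and blocks estrogen in others. Skeletal muscle expresses estrogen receptor alpha (*Esr1*), and its polyamine metabolism, fiber size and fuel use are known to respond to sex steroids.

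The 7 libraries held 25702605 to 28338738 counts, and those of WT + TAM (up to 26828632) lay below those of WT (from 27555316; p = 0.0571 in an exact two-sided permutation test, which with 35 splits can give no lower value). Markers of skeletal muscle were abundant in every library. *Acta1*, the skeletal muscle actin, was at 25892 to 30248 RPKM (reads scaled to gene length and library size) in WT and 26585 to 30407 in WT + TAM. *Mtm1* had counts of 369, 341 and 350 in WT and 282, 459, 345 and 329 in WT + TAM, as the wild-type label asks, but only 74 in WT replicate 1, within the 63 to 85 of the 4 *Mtm1* KO libraries. The Y-linked gene *Ddx3y* had at least 1988 counts in each of the 7 libraries. Within WT + TAM, replicates 7 and 8 were the pair most alike, with a chi-square per degree of freedom of 12.4 against 45.6 to 80.2 for the other pairs of this group. This is above the value of 1 that counting noise alone would give, but it cannot tell 2 mice from 2 preparations of 1 mouse. They were kept as 2 mice because the study counts n in mice. The test was repeated without them, with 11 calls, 5 of them among the 19 described next.

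Of 41388 genes, 14544 passed the filter on low counts, and 19 of these (0.131%) passed an adjusted p of 0.01 for WT + TAM against WT, by the quasi-likelihood test of edgeR with p-values adjusted by Benjamini and Hochberg. SE is the SE of a log2 fold change in this fit. With tamoxifen, 10 genes rose (0.0688% of those tested) and 9 fell (0.0619%). The median log2 fold change of all tested genes was -0.00, and 7197 were positive and 7347 negative. Among the 10 genes that rose, the progesterone receptor had no counts in WT, and the log2 fold changes of the others were highest for the adhesion gene *Flrt1* and the oxytocin receptor, followed by *Fbp2* and *Gpx3*. The decreases included genes of polyamine metabolism, a subunit of the energy sensor AMPK and the complement factor *C7*. RNA of whole muscle was measured, so that fewer cells of a type and less RNA per cell cannot be told apart for any of these genes. The number of calls depended on single libraries. Leaving out WT replicate 2, 3 or 4 gave 9, 12 or 2 calls, and leaving out WT + TAM replicate 5, 6, 7 or 8 gave 4, 21, 6 or 4, of which 7, 10, 2, 4, 15, 5 and 4 in this order were among the 19. With WT replicate 1 added there were 12 calls. All 19 genes kept their direction and an adjusted p of at most 0.0492 with any 1 of the 7 libraries left out. Only *Flrt1* and *Oxtr* stayed past 0.01 in each of these fits, and for the other genes the highest of the 7 adjusted p values is given with its library. Among the 14544 genes, the 4 treated libraries all lay above the 3 untreated ones in 737 (5.07%) and all below them in 945 (6.5%).

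**Figure D1:**
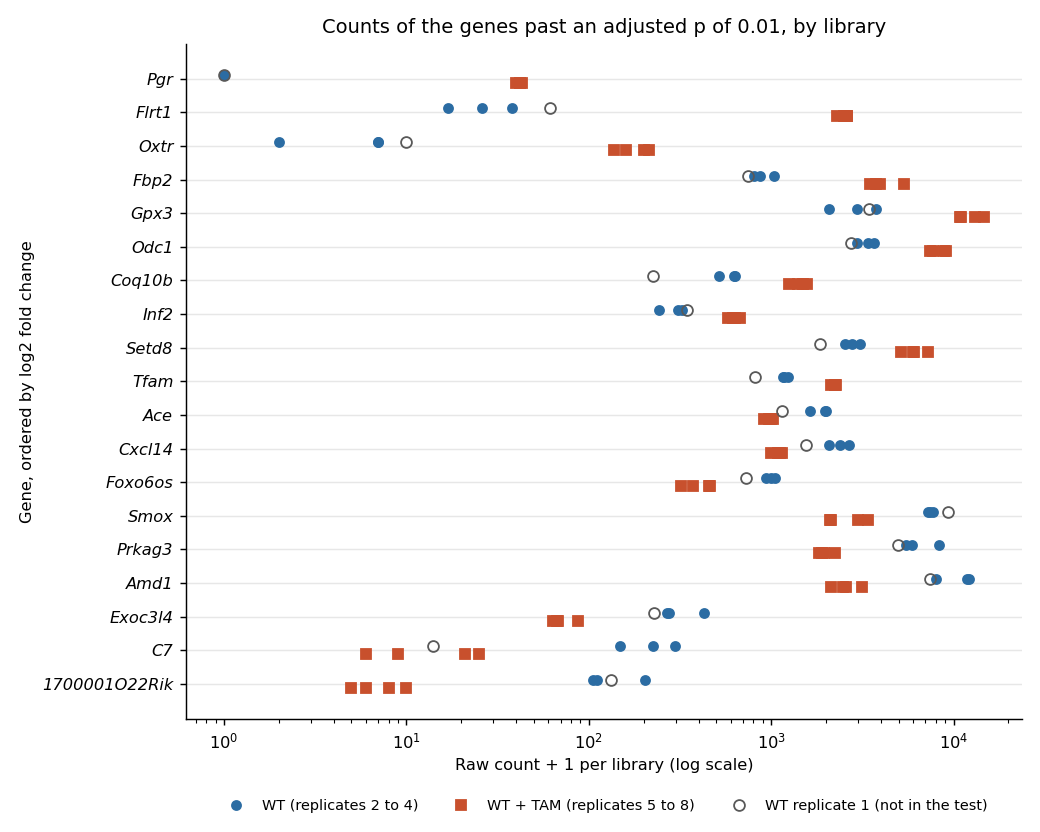
Raw counts plus 1 (log axis) of the 19 genes past an adjusted p of 0.01 in each library, ordered by log2 fold change, with WT as blue circles, WT + TAM as orange squares and WT replicate 1, which was not in the test, as an open circle. The 2 groups do not overlap for any of the genes, and the open circle of *C7* lies among the treated libraries.

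**Figure D2:**
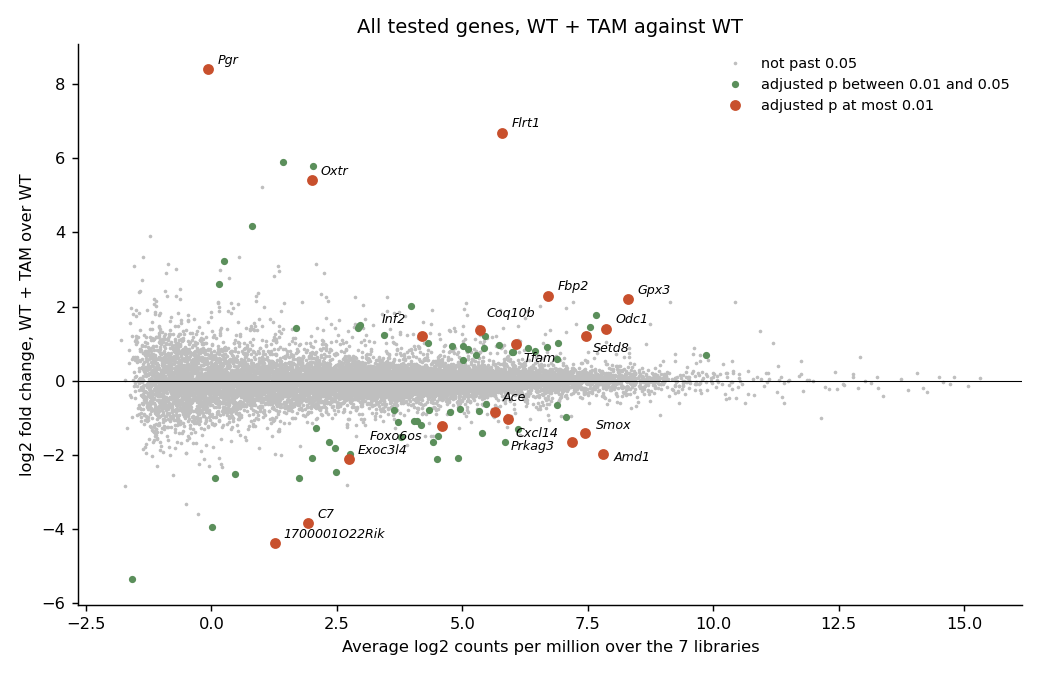
Log2 fold change of WT + TAM over WT against the average log2 CPM (counts scaled to library size) for the 14544 tested genes, with the 19 genes past 0.01 in orange and named, and the 61 others past 0.05 in green. Most genes lie near 0, and *Pgr*, *Flrt1* and *Oxtr* are the highest of the named genes.

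The genes of the estrogen response were examined first. *Esr1* itself, the receptor, was present at 1.48 to 2.26 RPKM in WT and 1.42 to 2.53 RPKM in WT + TAM, with a log2 fold change of 0.00 (SE 0.19). None of the 12 tested genes of estrogen receptors and cofactors passed 0.01 or 0.05. Of 26 tested target genes known from other tissues, 2 rose at 0.01 and none fell, or 7.69% against 0.131% of all genes. Their median log2 fold change was 0.08, with 14 positive and 12 negative, and it was -0.03 without WT + TAM replicate 5. The 2 calls were those of *Pgr* and *Oxtr*. All gene lists were chosen with earlier results of these data known, so a share of calls above that of all genes is no test of a list.

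*Pgr* (ENSMUSG00000031870, chromosome 9, 8899833 to 8968611, plus strand, GRCm38) encodes the progesterone receptor, a standard marker of estrogen action. It had 0 counts in each of the 3 WT libraries and in WT replicate 1, and 41, 41, 42 and 39 counts in WT + TAM. It was therefore at least 43.4-fold higher with tamoxifen, with the 0 counts of WT replaced by a floor of 3 for the 3 libraries together, and at least 28.7-fold higher with WT replicate 2 left out. Its adjusted p was 0.00447, and 0.0241 without WT + TAM replicate 8. Even so its level was low, at 0.175 to 0.191 RPKM. *Oxtr* (ENSMUSG00000049112, chromosome 6, 112473683 to 112489943, minus strand), the oxytocin receptor, had 6, 1 and 6 counts in WT and 137, 212, 200 and 160 in WT + TAM. The treated libraries lay far above the untreated ones, which held 13 counts in all, and the log2 fold change was 5.41 (SE 0.40, adjusted p = 8.81e-04).

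*Flrt1* (ENSMUSG00000047787, chromosome 19, 7092001 to 7105729, minus strand), which was in none of the gene lists, had the lowest p. It encodes a membrane protein of cell adhesion and axon guidance. Its counts were 37, 16 and 25 in WT and 2615, 2301, 2508 and 2611 in WT + TAM, or 0.159 against 16.4 RPKM on average. The treated libraries were close to each other and 104-fold above WT, a log2 fold change of 6.69 (SE 0.23, adjusted p = 1.25e-06). WT replicate 1 had 60 counts, on the side of the untreated mice.

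The remaining estrogen targets did not pass 0.01. *Xbp1*, a transcription factor of the secretory pathway, had 1642, 1827 and 1608 counts in WT and 2470, 2673, 3083 and 2913 in WT + TAM (log2 fold change 0.80, SE 0.13, adjusted p = 0.0289), past 0.05 only. *Greb1*, a cofactor of the receptor, had 1, 7 and 6 counts against 14, 16, 9 and 23, and *Nrip1*, a corepressor, had 749, 887 and 304 against 1482, 2248, 1109 and 1000. Neither overlapped between the groups and neither passed (adjusted p = 0.352 and 0.249). *Wisp2* was at 97, 133 and 141 counts in WT and 94, 84, 113 and 86 in WT + TAM, with overlap.

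Because the receptor acts through DNA, the promoters of the called genes were searched for its motif. RefSeq windows (build GRCm38.p6) of 250 bases before to 50 after the transcription start were present for 17 of the 19 genes, with 21 windows, and not for *Flrt1* and *Setd8*. The full element, GGTCA and TGACC with 3 bases between them, was in 0 of the 21 windows and in 0.07% of all 32851 windows. It is so rare that 21 windows could hardly hold one, so the 0 says nothing about these genes. Sites outside the windows were not searched. Its single repeat, AGGTCA on either strand, was in 4 of the 21 windows, those of *Oxtr*, *Cxcl14*, *C7* and *Ace*, and in 16.3% of all windows. The repeat AGAACA on either strand, which other steroid receptors bind, was in 5 of the 21 windows and in 19% of all windows. The windows of *Pgr* and *Oxtr*, the called targets, are shown beside those of *Cxcl14*, which fell and holds both repeats, and *Gpx3*, which rose and holds the second, with these letters in capitals. They are written in the direction of transcription and lie at chr9:8899583-8899882, chr6:112489776-112490075, chr13:56296502-56296801 and chr11:54902604-54902903 in this order.
Pgr: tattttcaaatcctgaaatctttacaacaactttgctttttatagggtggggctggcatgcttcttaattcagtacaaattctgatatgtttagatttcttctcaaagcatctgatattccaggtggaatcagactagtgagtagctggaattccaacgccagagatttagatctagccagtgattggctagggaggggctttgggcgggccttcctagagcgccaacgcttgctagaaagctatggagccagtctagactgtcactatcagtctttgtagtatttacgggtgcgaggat
Oxtr: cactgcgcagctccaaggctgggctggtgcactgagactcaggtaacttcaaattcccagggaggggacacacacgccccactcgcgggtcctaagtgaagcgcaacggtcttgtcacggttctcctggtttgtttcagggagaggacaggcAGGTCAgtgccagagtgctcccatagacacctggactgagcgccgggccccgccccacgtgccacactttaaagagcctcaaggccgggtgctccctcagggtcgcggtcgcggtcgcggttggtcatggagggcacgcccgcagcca
Cxcl14: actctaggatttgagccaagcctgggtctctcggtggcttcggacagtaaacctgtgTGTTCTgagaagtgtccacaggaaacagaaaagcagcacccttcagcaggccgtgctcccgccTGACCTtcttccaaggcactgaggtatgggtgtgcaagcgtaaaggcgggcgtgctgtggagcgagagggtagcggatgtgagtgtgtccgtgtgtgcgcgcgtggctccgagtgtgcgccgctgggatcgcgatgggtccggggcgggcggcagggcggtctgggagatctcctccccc
Gpx3: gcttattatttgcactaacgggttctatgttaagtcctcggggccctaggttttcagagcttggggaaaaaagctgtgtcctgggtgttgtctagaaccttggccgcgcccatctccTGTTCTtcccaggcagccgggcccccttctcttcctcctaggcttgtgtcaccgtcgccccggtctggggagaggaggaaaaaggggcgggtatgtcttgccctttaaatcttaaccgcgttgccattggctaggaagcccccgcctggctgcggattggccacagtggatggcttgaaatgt
The repeat AGGTCA of *Oxtr* starts at base -98 from the transcription start, and that of *Cxcl14*, read as TGACCT, at base -130. The 4 matches among 21 windows are close to the share in all windows, and a match of letters is no measurement of binding.

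Polyamines are small cations that cells need for growth, and their enzymes are classical targets of androgens. Of 16 tested genes in a list of polyamine enzymes and androgen-responsive genes, 1 rose and 2 fell at 0.01, or 18.8% against 0.131% of all genes. The list median was 0.01, with 8 members positive and 8 negative. As the list was chosen with earlier results of these data known, its share of calls is no test of it. *Odc1* (ENSMUSG00000011179, chromosome 12, 17544794 to 17551505), ornithine decarboxylase, makes putrescine in the first step of synthesis. It had 3404, 3654 and 2966 counts in WT and 7452, 7680, 9113 and 8879 in WT + TAM. The treated libraries were 2.63-fold higher, with a log2 fold change of 1.40 (SE 0.14, adjusted p = 0.00295, and 0.0247 without WT replicate 4). Of the 50-base stretches of *Odc1*, 24.3% also occur in other genes, with the largest share in *Gm7993* (11.7%).

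*Amd1* (ENSMUSG00000075232, chromosome 10, 40287458 to 40302186), S-adenosylmethionine decarboxylase, supplies the aminopropyl groups that turn putrescine into spermidine and spermine. It had 8039, 11908 and 12108 counts in WT and 2119, 3155, 2464 and 2567 in WT + TAM. Every treated library was well below every untreated one, including WT replicate 1 with 7397 counts, and the mean was 3.94-fold lower (log2 fold change -1.98, SE 0.18, adjusted p = 0.00223, and 0.0187 without WT replicate 4). Of the 50-base stretches of *Amd1* exons, 78.1% also occur in other genes, most of them in *Amd2*. *Amd2* and the pseudogene *Amd-ps4* were lower as well, past 0.05 only (log2 fold changes -2.52 and -2.63), and with at most 84 and 57 counts in WT they cannot be separated from misplaced reads of *Amd1*. *Smox*, spermine oxidase, which turns spermine back into spermidine, had 7269, 7393 and 7711 counts in WT and 2974, 3406, 2111 and 2125 in WT + TAM, or 2.65-fold less (log2 fold change -1.41, adjusted p = 0.00793, and 0.0397 without WT replicate 4). *Sms*, spermine synthase, was at 4307, 5124 and 3507 counts against 2984, 2991, 3074 and 3165, without overlap and without passing the test (adjusted p = 0.340).

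*Fbp2* (ENSMUSG00000021456, chromosome 13, 62836877 to 62858422) encodes the muscle fructose-1,6-bisphosphatase, which runs against glycolysis. Its counts were 802, 869 and 1031 in WT and 5357, 3475, 3961 and 3765 in WT + TAM. All 4 treated libraries were more than 3 times any untreated one, and the log2 fold change was 2.29 (SE 0.19, adjusted p = 0.00212, and 0.0127 without WT replicate 4). It was the 1 called gene among 34 tested genes of glycolysis and glycogen (2.94% against 0.131% of all genes), whose median was 0.10. Among the others, hexokinase *Hk2* was at 0.39 and phosphofructokinase *Pfkm* at 0.17 on the log2 scale, and neither passed. *Prkag3* (ENSMUSG00000006542, chromosome 1, 74738922 to 74749221), the gamma 3 subunit of AMPK in fast fibers, fell from 5924, 8317 and 5499 counts to 1825, 2237, 1892 and 1937. The untreated libraries were on average 3.17-fold higher, a log2 fold change of -1.66 (SE 0.17, adjusted p = 0.00295, and 0.0226 without WT + TAM replicate 8).

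Other genes of glucose handling passed 0.05 but not 0.01 and were picked after their values had been seen. At 0.05, 80 genes passed (0.55%), 40 higher and 40 lower (0.275% each). *Tbc1d1* and *Tbc1d4*, regulators of glucose transporter traffic downstream of AMPK and insulin, had log2 fold changes of 1.20 and 0.96 (adjusted p = 0.0119 and 0.0335). *Pcx*, pyruvate carboxylase, had 3804, 1656 and 1823 counts in WT and 8549, 9634, 6267 and 6059 in WT + TAM (log2 fold change 1.76, adjusted p = 0.0298). All 3 were higher in each treated library than in any untreated one.

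*Gpx3* (ENSMUSG00000018339, chromosome 11, 54902453 to 54910377), a secreted glutathione peroxidase, had 3762, 2068 and 2948 counts in WT and 14765, 13122, 10956 and 10900 in WT + TAM. It was 4.57-fold higher (log2 fold change 2.19, SE 0.19, adjusted p = 0.00223, and 0.0189 without WT replicate 4). *Tfam* (chromosome 10, 71225464 to 71238280), the factor that packages and transcribes mitochondrial DNA, had 1232, 1178 and 1166 counts against 2267, 2239, 2139 and 2227. Its groups were tight, and the log2 fold change was 0.99 (SE 0.10, adjusted p = 0.00295, and 0.0260 without WT replicate 4). *Coq10b*, which binds the electron carrier coenzyme Q, had 628, 629 and 516 counts against 1574, 1251, 1396 and 1501 (log2 fold change 1.37, adjusted p = 0.00396, and 0.0260 without WT replicate 4). WT replicate 1 had 225 counts of *Coq10b* and 813 of *Tfam*, below the other untreated libraries.

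*Tfam* was the 1 called gene of the 35 tested genes of mitochondrial biogenesis and the respiratory chain (2.86% against 0.131% of all genes), whose median was -0.01 with 17 positive and 18 negative. *Ppargc1a*, the coactivator upstream, had a log2 fold change of -0.20 and *Nrf1* of 0.23. Of the 13 transcripts of the mitochondrial genome, 12 were negative, with a median of -0.27 and none called. Listed mitochondrial genes took 4.12 to 6.65% of the counts in WT and 4.08 to 5.12% in WT + TAM, with overlap. Of 17 tested NRF2 targets, the genes of the main antioxidant program, none passed 0.01 or 0.05, but 15 were positive and 6 were higher without overlap, which is 5.07% over all genes. Their values ran from -1.80 to 3.08 on the log2 scale, with *Nqo1*, *Hmox1* and *Gclm* at 0.14, -0.06 and 0.01. The highest was *Gsta3*, a glutathione transferase, with 25, 5 and 9 counts in WT and 117, 216, 40 and 42 in WT + TAM (adjusted p = 0.124). Their median was 0.39, and it was 0.14 without WT + TAM replicate 6 and 0.15 without replicates 5 and 6.

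Other called genes rose or fell outside these pathways. *Setd8*, which methylates histone H4 and acts in the cell cycle, had 2788, 3080 and 2546 counts in WT and 5149, 7199, 6014 and 6070 in WT + TAM (2.30-fold, adjusted p = 0.00495, and 0.0352 without WT replicate 4). *Inf2*, an actin-modelling formin, had 323, 242 and 306 counts against 616, 577, 675 and 636 (2.31-fold, adjusted p = 0.00420, and 0.0260 without WT replicate 4). *1700001O22Rik* had 110, 203 and 104 counts against 4, 5, 9 and 7, which is 21.2-fold lower (adjusted p = 0.00223, and 0.0166 without WT + TAM replicate 8). *Exoc3l4*, a relative of an exocyst subunit, had 275, 429 and 266 counts against 86, 63, 66 and 67 (adjusted p = 0.00656, and 0.0313 without WT + TAM replicate 8), and 11.04% of its 50-base stretches also occur elsewhere, most of them in *Gm10425*. *Foxo6os*, antisense to *Foxo6*, had 993, 1051 and 934 counts against 318, 370, 464 and 453 (adjusted p = 0.00906, and 0.0362 without WT replicate 3). *Foxo6* had a log2 fold change of -1.19 (adjusted p = 0.0359), next to -1.22 for *Foxo6os*. The annotated spans of *Foxo6* (chromosome 4, 120267079 to 120287349, minus strand) and *Foxo6os* (120291350 to 120303892, plus strand) do not overlap. Of the 50-base stretches of either gene, 0% also occur in other genes. Whether the decreases of this pair are linked was not tested.

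*C7* (ENSMUSG00000079105, chromosome 15, 4988762 to 5063740), a component of the membrane attack complex of complement, had 223, 147 and 296 counts in WT and 8, 5, 24 and 20 in WT + TAM. The groups were far apart, 14.5-fold (log2 fold change -3.85, SE 0.45, adjusted p = 0.00713, and 0.0352 without WT replicate 4). WT replicate 1, although untreated, had 13 counts, within the treated range, and with it added the adjusted p was 0.129. *Cxcl14*, a chemokine, had 2383, 2084 and 2660 counts against 992, 1147, 1086 and 1111, 2.06-fold less (adjusted p = 0.00295, and 0.0226 without WT + TAM replicate 8). *Ace*, angiotensin-converting enzyme of the endothelium, had 2000, 1639 and 1968 counts against 1017, 1001, 913 and 972, 1.79-fold less (adjusted p = 0.00793, and 0.0492 without WT replicate 4).

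Markers of other cell types in muscle were compared between the groups. Summed over the list, macrophage and leukocyte markers took 438 to 543 CPM (counts scaled to library size) in WT and 221 to 528 in WT + TAM, with overlap. *Cxcl14* was the 1 called gene of 27 tested in that list (3.70% against 0.131% of all genes), and the pan-leukocyte gene *Ptprc* was at 75, 98 and 106 counts against 114, 48, 75 and 94. Endothelial markers summed to 945 to 1375 CPM in WT and 997 to 1074 in WT + TAM. Of the 22 tested, 17 were negative, 5 were lower without overlap (6.5% over all genes), 1 was higher without overlap (5.07% over all genes), and none passed 0.01 or 0.05, with a median of -0.19. The vascular cadherin *Cdh5* had 3719, 2405 and 3457 counts against 1501, 1816, 1970 and 1972 (log2 fold change -0.72, adjusted p = 0.0647). The part of these cells in the decrease of *Ace* was not tested.

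Immunoglobulin M heavy chain, *Ighm*, passed 0.05 with 3258, 1621 and 3103 counts in WT and 558, 780, 879 and 947 in WT + TAM (log2 fold change -1.65, SE 0.23, adjusted p = 0.0140). All treated libraries were below all untreated ones, WT replicate 1 included with 1590. The B cell surface gene *Ms4a1* was near 0 in both groups, with 1, 0 and 0 counts in WT against 0, 0, 0 and 1 in WT + TAM. *Cd79b*, of the B cell receptor, had 12, 2 and 2 counts against 12, 10, 14 and 16, with a log2 fold change of 1.38 that did not pass (adjusted p = 0.488), and *Cd79a* had 6, 2 and 2 against 0, 4, 4 and 7. *Ighm* and *Cd79b* were the 2 genes of the B cell and immunoglobulin list that were tested. The summed list was at 59.5 to 118 CPM in WT and 22.8 to 37.6 in WT + TAM. Nearly all of this sum was *Ighm*, so it repeats the value of that gene. The part of B cells in the value of *Ighm* was not tested. The interleukin 18 receptor gene *Il18r1* had 12, 18 and 18 counts in WT and 0, 0, 0 and 1 in WT + TAM, 60.1-fold less over the summed counts (10.3 to 2422 by counting error alone, 95%, with an adjusted p of 0.0289, and 0.106 without WT replicate 4), and a single count in WT replicate 1. Both were picked after their values had been seen.

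Collagens and other matrix genes had mostly negative values and no call at 0.01. Of 48 tested, 39 were negative, 11 were lower without overlap, which is 6.5% over all genes, and 2 were higher without overlap. The median was -0.32, and it was -0.15 without WT + TAM replicate 6 and -0.06 without replicates 5 and 6. *Col6a6* alone passed 0.05, with 735, 556 and 756 counts in WT and 264, 230, 345 and 354 in WT + TAM (log2 fold change -1.09, adjusted p = 0.0330), and 251 counts in WT replicate 1. The main collagens *Col1a1* and *Col3a1* were at -0.46 and -0.61 on the log2 scale (adjusted p = 0.474 and 0.290). Summed fibroblast and tendon markers, a list that holds *Col3a1*, were at 5079 to 5379 CPM in WT and 3093 to 4790 in WT + TAM (two-sided exact permutation test, p = 0.0571, Benjamini-Hochberg adjusted over 13 library measures 0.248). WT replicate 1, at 4540 CPM, was within the treated range, and of the 21 tested members 9 were positive and 12 negative, with a median of -0.05.

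**Figure D3:**
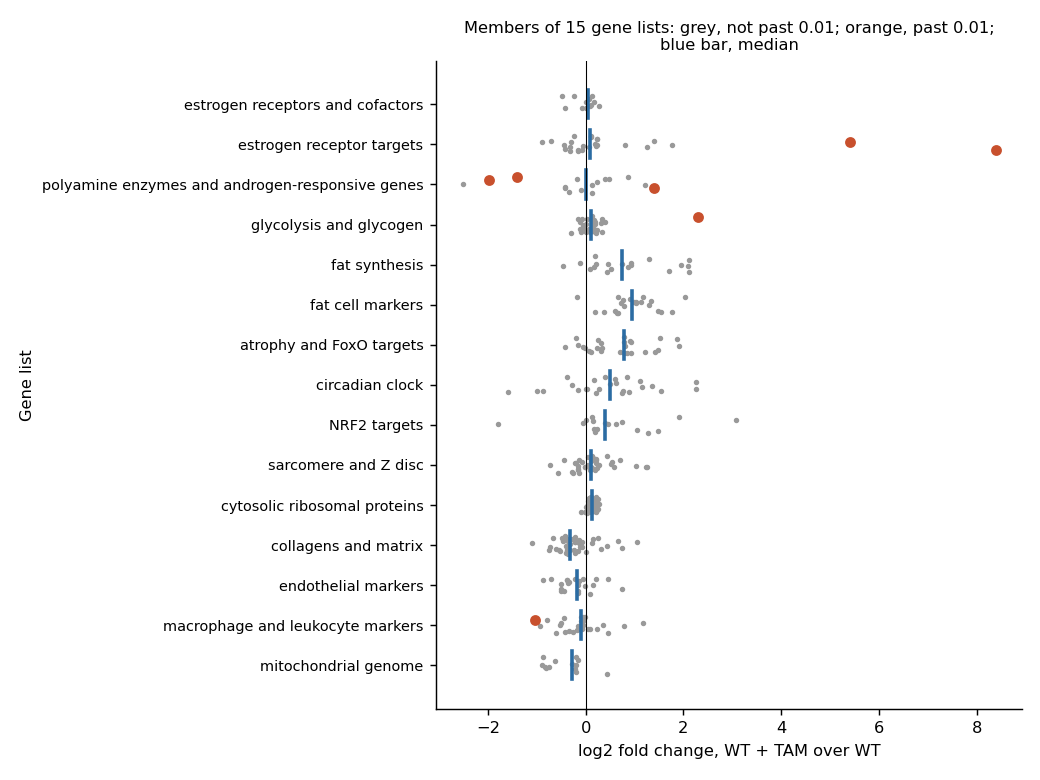
Log2 fold changes of the tested members of 15 gene lists, with members past an adjusted p of 0.01 in orange, the others in grey and the list median as a blue bar. Medians range from -0.32 for collagens and matrix to 0.94 for fat cell markers, and the called genes lie away from the medians of their lists.

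Genes of muscle wasting had mostly positive values and no call at 0.01. The list holds ubiquitin ligases, FoxO factors and their targets. Of 27 tested, 22 were positive, 10 were higher without overlap, which is 5.07% over all genes, and none was lower without overlap. The median was 0.78, between 0.61 and 0.75 with 1 library left out, 0.65 with WT replicate 1 added and 0.33 without WT + TAM replicates 5 and 6. Past 0.05 were *Cebpb* (log2 fold change 0.90, adjusted p = 0.0335), a transcription factor of the glucocorticoid response, and the stress gene *Sesn1* (0.70, adjusted p = 0.0298). Of the 50-base stretches of *Cebpb*, 18.1% also occur elsewhere, most of them in *Tmem189*. The ligase *Fbxo32* (atrogin-1) had 3377, 2243 and 5180 counts in WT and 5761, 2841, 7050 and 7301 in WT + TAM, and *Trim63* (MuRF1) had 5753, 5623 and 7454 against 9165, 4947, 7357 and 7691. Both overlapped between the groups (adjusted p = 0.467 and 0.654). *Foxo1* and *Foxo3* did not overlap, with log2 fold changes of 0.78 and 0.80 (adjusted p = 0.190 and 0.121).

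Growth signals were described beside them. *Igf1*, insulin-like growth factor 1, had 2024, 1593 and 1951 counts in WT and 704, 944, 1316 and 1263 in WT + TAM, and its receptor gene *Igf1r* had 99, 105 and 106 against 170, 238, 159 and 207. The groups did not overlap, lower for the factor and higher for the receptor, with adjusted p values of 0.190 and 0.0561. *Igfbp5*, which binds the factor, was at -0.93 on the log2 scale (adjusted p = 0.0869). The growth hormone receptor gene *Ghr* was at -0.05 and the myostatin gene *Mstn* at 0.30.

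Genes of fat synthesis and of fat cells were higher in some treated mice and not in others. *Fasn*, fatty acid synthase, had 13194, 655 and 2863 counts in WT and 38545, 35325, 7078 and 6628 in WT + TAM. WT replicate 2 was above WT + TAM replicates 7 and 8, so the groups overlapped (log2 fold change 2.12, SE 0.95, adjusted p = 0.469). *Scd1* followed the same order of libraries, with 32966, 1455 and 7011 counts against 90955, 84287, 20306 and 20761. The 22 fat cell markers summed to 4867, 995 and 2047 CPM in WT and to 7939, 6740, 3739 and 3646 in WT + TAM, again with WT replicate 2 above replicates 7 and 8. Their median log2 fold change was 0.94, which was 2.47 without WT replicate 2, 0.41 without WT + TAM replicate 5 and -0.26 without replicates 5 and 6. The median of 19 fat synthesis genes was 0.75, and 0.20 without replicates 5 and 6. *Srebf1*, the regulator of fat synthesis, passed 0.05 with 1925, 1138 and 1438 counts in WT and 2709, 2741, 2397 and 2367 in WT + TAM (log2 fold change 0.87, adjusted p = 0.0390), and did not overlap. The part of fat cells in the values of the synthesis genes was not tested.

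**Figure D4:**
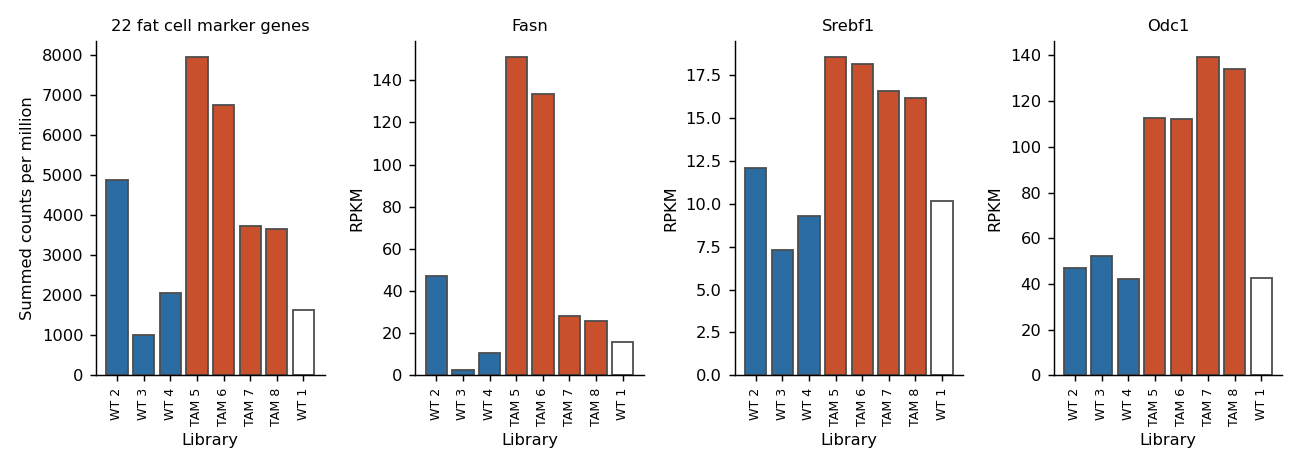
Bars give, per library, the summed CPM of 22 fat cell markers and the RPKM of *Fasn*, *Srebf1* and *Odc1*, with WT in blue, WT + TAM in orange and WT replicate 1 in white. The first 2 panels are high in WT replicate 2 and WT + TAM replicates 5 and 6, whereas *Srebf1* and *Odc1* separate the groups.

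Clock genes also split the treated mice. *Per2* had 139, 120 and 40 counts in WT and 634, 875, 162 and 122 in WT + TAM, and *Arntl*, which peaks opposite to it, had 335, 405 and 656 against 91, 65, 411 and 386. Replicates 5 and 6 lay outside the untreated range for both genes, and replicate 7 of *Per2* only slightly above it. Of 25 tested clock genes none passed 0.01 or 0.05, 8 were higher without overlap (5.07% over all genes) and 2 lower (6.5% over all genes), and the median was 0.49, or 0.22 without replicate 6 and 0.13 without replicates 5 and 6. *Per1*, with 1260, 1565 and 628 counts against 2275, 3147, 2005 and 2001, was one of those without overlap (adjusted p = 0.176). The part of the hour of collection, which the labels do not give, was not tested.

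Contractile and structural genes of the fiber came last. Among 42 tested sarcomere and Z disc genes none passed 0.01 or 0.05, with a median of 0.10, or 0.01 with WT replicate 1 added. Of these, 27 were positive and 15 negative. Without overlap, 7 were higher (5.07% over all genes) and 0 lower (6.5% over all genes). The fast myosin *Myh4* was at 723651 to 1252239 counts in WT and 783706 to 1053487 in WT + TAM. Slow fiber genes varied widely among untreated mice, and myoglobin (*Mb*) had 46456, 7778 and 78479 counts in WT against 34495, 17357, 50049 and 51646. Past 0.05 were *Mylk2*, the kinase of fast myosin light chains (log2 fold change 0.68, adjusted p = 0.0330), and *Myh8*, the perinatal myosin. *Myh8* had 100, 116 and 95 counts against 361, 283, 202 and 268 (log2 fold change 1.51, adjusted p = 0.0253), and 12.1% of its 50-base stretches also occur elsewhere, most of them in *Myh2*. The embryonic myosin *Myh3* and the myogenic factor *Myog* were at 0.58 and 0.04. Genes that the study is about did not pass, with log2 fold changes of 0.09 for *Mtm1* (SE 0.15), -0.05 for *Dnm2*, dynamin 2 (0.10), and -0.38 for *Pik3c2b* (0.21).

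In all, 5 of 44 gene lists held a called gene and 39 did not, and 8 of the 19 called genes were in a list. Of 18 tested drug-handling genes 15 were positive and 3 negative, with a median of 0.29, or -0.14 without WT + TAM replicates 5 and 6. The transporter *Abcb1a* was at -0.62 (adjusted p = 0.185) and *Cyp1a1* at 0.79. Drug-handling genes were among the lists without a call. So were cholesterol synthesis, where tamoxifen is known to bind enzymes (*Ebp* 0.04), and cytosolic ribosomal proteins, of which 51 of 53 were positive with a median of 0.12 that became -0.11 with WT replicate 1 added.

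To see whether the genes called in WT also moved in mice that lack *Mtm1*, their values were taken from *Mtm1* KO + TAM (n = 4) against *Mtm1* KO (n = 3), which share no library with the WT groups. *Mtm1* KO replicate 12 was left out here and from the interaction because the study left it out, again with no reason given. In that comparison 0 of 15062 genes passed 0.01 in the same edgeR test, and 1137 had an unadjusted p of at most 0.05 (7.55%). The study, using DESeq and edgeR, did report transcripts past 0.01 in this comparison, so the 0 describes the present test only. Of the 19 genes, 18 were tested there (not *1700001O22Rik*), all 18 had the same sign as in WT, and 13 had an unadjusted p of at most 0.05. *Flrt1* (log2 fold change 4.52, SE 0.60), *Oxtr* (3.03, 0.63), *Fbp2* (1.34, 0.29), *Gpx3* (0.97, 0.16) and *C7* (-3.11, 0.56) were among the 13. *C7* had 138, 58 and 83 counts in *Mtm1* KO and 7, 2, 15 and 21 in *Mtm1* KO + TAM. The left-out *Mtm1* KO replicate 12, although untreated, had 9, within the treated range. Of the 80 genes past 0.05 in WT, 75 were tested in *Mtm1* KO, 72 had the same sign and 38 of these an unadjusted p of at most 0.05. The 3 with the other sign were *Tiam1*, *Cebpb* and *Dupd1*. The genes were chosen on their size in WT, so larger values in WT than in *Mtm1* KO, as seen in all 18, do not compare the genotypes.

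The difference between the 2 effects was tested as an interaction, which used all genes and 14 libraries. It passed 0.01 for 0 of 15556 genes and 0.05 for 0, with 664 at an unadjusted p of at most 0.05, and DESeq2 called 12 at 0.01. The genes with the lowest p were *Amd1*, *Odc1*, *Rcan1*, *Exoc3l4* and *Fbxl13*, each with an adjusted p of 0.270. *Amd1* was at -1.98 in WT and -0.22 (SE 0.20) in *Mtm1* KO, and *Odc1* at 1.40 and 0.24 (0.15). Untreated *Mtm1* KO had 1693, 1957 and 2191 counts of *Amd1*, below every untreated WT library. It had 4497, 5029 and 6397 counts of *Odc1*, above every untreated WT library. The part of these starting levels in the differences was not tested. *Exoc3l4* was at -2.12 and -0.53 (0.18). *Rcan1*, an inhibitor of calcineurin, had 2813, 3628 and 3070 counts in WT and 1289, 1125, 1838 and 1614 in WT + TAM, a log2 fold change of -1.03 against 0.37 in *Mtm1* KO. *Fbxl13* had 6, 13 and 6 counts in WT and 0 in each WT + TAM library, at least 10.4-fold lower against the floor, but also 0 in WT replicate 1, and it was not tested in WT. None of these differences passed the correction.

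**Figure D5:**
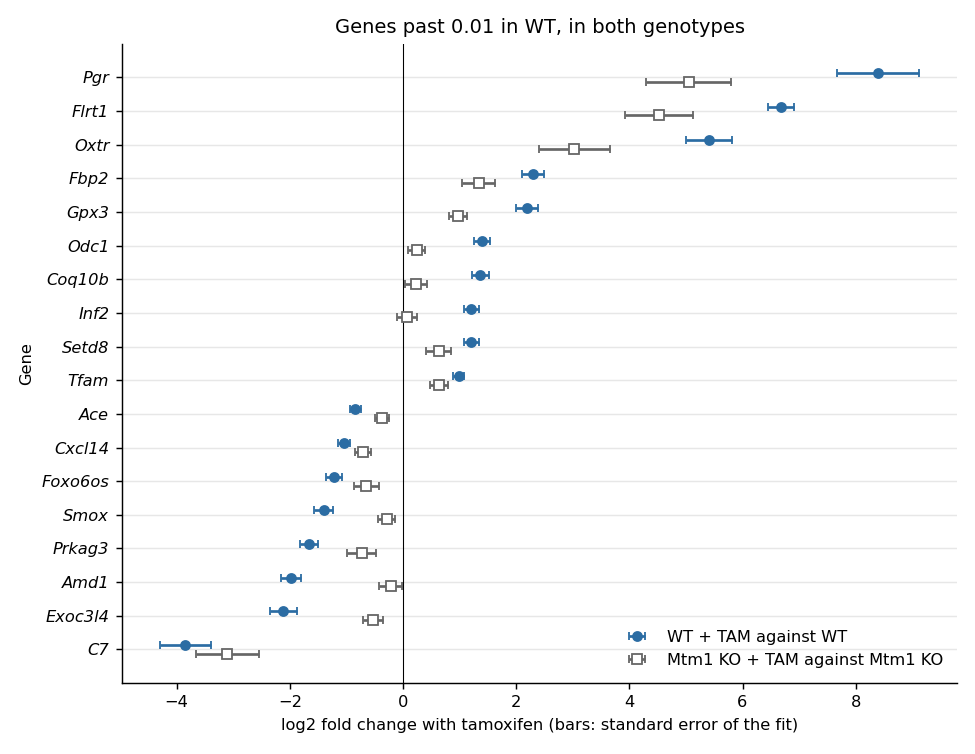
Log2 fold changes with tamoxifen in WT (blue circles) and *Mtm1* KO (open squares) for the 18 genes past 0.01 in WT that were tested in both genotypes, with bars for the SE of the fit. All 18 pairs lie on the same side of 0, and *Inf2*, *Coq10b*, *Odc1* and *Amd1* lie close to 0 in *Mtm1* KO.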

How the data were processed

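RNA from quadriceps of 3 WT and 4 WT + TAM mice was tested, with WT replicate 1 as a check and *Mtm1* KO libraries for comparison only. Per the authors, reads were aligned to GRCm38 with STAR and counted on genes with HTSeq, and the deposited raw counts are whole numbers with no scaling. The deposited RPKM values were made by the authors from these counts by library size and gene length. The submitters' processing notes name bcl2fastq 2.17, STAR 2.5.0c and Cufflinks 2.2.1. The gene annotation, the mode of counting and the strand setting were not stated in any source used here.

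Counts were tested with edgeR 4.0.16 in R 4.3.3 (TMM, filterByExpr with minimum count 10, quasi-likelihood test, Benjamini-Hochberg adjustment over all genes tested, threshold 0.01). Standard errors are those of the fit. TMM rests on most genes being unchanged. Single library values were compared with exact permutation tests (scipy). In data simulated for this comparison with 200 of 14544 genes changed by 2 on the log2 scale, 87% of them and 1 unchanged gene were called. Intervals and floors cover counting error only. Other fits used the exact test of edgeR, DESeq2 1.42.0, limma 3.58.1 on log2 RPKM, other scalings and filters, 1 fit of all 4 groups, WT replicate 1 added, and each library left out.

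The genes named are the called ones (up to 15 in each direction) whose mean reached 50 counts in either group and whose groups were apart, called list members, key list members, genes that the study is about and the 5 lowest interaction p values. *Pgr*, below that mean count, is named as a list member. Genes past 0.05 only and other list members without overlap were named after their values were seen. The members, 44 gene lists (978 genes tested) and tests were chosen with earlier results of these data known. Of the list symbols, 8 were matched by a newer symbol and 3 were not in the table. Positions are from GENCODE vM21 (GRCm38), promoter sequences from RefSeq (GRCm38.p6), and 40254 of 41388 identifiers matched GENCODE. All columns of both tables are mapped to labelled samples. Some genes of the lists are not reported here.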

Additional observations from a re-analysis of the deposited data

How the results depend on the processing

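The 19 called genes became 81 without the filter on low counts, 178 with edgeR's exact test, 208 with DESeq2, 166 called by both of these, 39 in 1 fit of all 4 groups, 12 with WT replicate 1 added, and 80 at a threshold of 0.05. With 1 library left out there were 2 to 21. In fits chosen after seeing the data, there were 11 without WT + TAM replicates 7 and 8 and 11 without replicates 5 and 6. RLE, upper quartile and library size scaling gave 19, 22 and 19, limma gave 15 with either pseudocount and at least 10 counts in every library gave 14. All 19 genes kept their sign in 19 of these 20 fits, and in the remaining one, which needs 10 counts in every library, the 15 that were tested did. DESeq2 and the exact test called all 19. The interaction gave 12 calls with DESeq2 and 0 in every other fit run. No paired analysis was possible because the WT and WT + TAM groups share no replicate number. Depth limits genes such as *Pgr* and *Greb1*, with under 50 counts a library.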

Other observations

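Some genes outside the lists differed by a large factor at low counts and are given after their values were seen. *Aqp5*, a water channel of glands, had 0, 1 and 5 counts in WT and 228, 98, 65 and 78 in WT + TAM (log2 fold change 5.89, SE, the standard error, 0.80, adjusted p = 0.0140, edgeR), and 0 in WT replicate 1. *Mmd2* had 0, 1 and 9 counts against 290, 294, 66 and 70 (5.79, SE 0.95, adjusted p = 0.0335), with replicates 5 and 6 above 7 and 8. *Otoa* had 10, 0 and 3 counts against 62, 51, 92 and 93 (4.18, SE 0.67, adjusted p = 0.0316). With 1 library left out, the log2 fold change ran from 5.30 to 7.64 for *Aqp5* (without WT replicate 2 and without WT replicate 4), from 5.19 to 8.24 for *Mmd2* (without WT replicate 2 and without WT replicate 4) and from 3.64 to 5.58 for *Otoa* (without WT replicate 3 and without WT replicate 2). The adjusted p reached 0.0587 for *Aqp5* and 0.111 for *Mmd2* without WT replicate 3, and 0.143 for *Otoa* without WT replicate 4. In each of the 3 the groups did not overlap, and the log2 fold changes with tamoxifen in *Mtm1* KO were 5.78 for *Aqp5*, 4.05 for *Mmd2* and 3.93 for *Otoa*.

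The maternally expressed noncoding RNA *Rian* had 2447, 3269 and 2100 counts in WT and 7412, 4407, 7255 and 7447 in WT + TAM (log2 fold change 1.43, adjusted p = 0.0388 in the same edgeR test), but 943 in WT replicate 1. *Dio3*, an imprinted gene of the same chromosome that inactivates thyroid hormone, had 3, 3 and 4 counts against 11, 15, 15 and 19 (2.21, adjusted p = 0.104), and 10 in WT replicate 1. *Cited4*, a cofactor of transcription, had 1283, 1821 and 1315 counts against 183, 181, 488 and 456 (-2.09, adjusted p = 0.0451), with replicates 5 and 6 below 7 and 8. The apelin receptor gene *Aplnr* had 1279, 612 and 1041 counts against 208, 199, 431 and 322 (-1.64, adjusted p = 0.0481).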
